A study of Caenorhabditis elegans with 10 samples.

Results

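C-type lectin genes (clec- genes) of Caenorhabditis elegans were described in RNA-seq of larvae carrying mutations of sftb-1, the worm ortholog of the splicing factor gene SF3B1. The genes were chosen by symbol and annotation alone: protein-coding genes whose symbol starts with clec-, with transcripts summed per gene and a mean normalized value of at least 10 over the libraries of a table. At the L4 stage 128 of 248 protein-coding clec- genes met this rule, among 15840 genes tested. At the L2 stage 116 of 122 did, among 15011 genes tested. The L2 values list few transcripts at 0 (0.0811%, against 50.2% at L4). The totals of 248 and 122 are therefore unlike, and the shares that met the rule cannot be compared. Together they made 139 genes, of which 105 were members at both stages, 23 at L4 alone and 11 at L2 alone. Those at L4 alone include genes not listed at L2, such as clec-97. The genes nearest the limit of 10 were clec-207 (10.1) above and clec-136 (8.60) below at L4, and clec-104 (10.4) above and clec-58 (9.59) below at L2.

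The 10 libraries formed 5 groups of 2, all from whole larvae grown at 20 °C. At L4 (41 h), 2 lines homozygous for the missense change K718E, cer3 and cer7, made independently by CRISPR, were compared with wild-type siblings taken from the outcross of each line. At L2 (23 h), wild-type N2 larvae were compared with cer39, an allele with the 3 missense changes Q552P, R643C and K718E, and with cer6, a deletion allele whose homozygous larvae arrest. Homozygous cer6 larvae were sorted as non-red animals from a balanced strain, and the methods describe small shares of red animals and of non-red recombinants among them. Maternal product may also remain. N2 was sorted with the same window, whereas cer39 was not sorted. The effect of cer39, or a difference between cer6 and cer39, therefore cannot be told apart from that of sorting. The comparison at each stage asks which transcripts differ when this spliceosome subunit is altered or lost.

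The C-type lectin-like fold is a carbohydrate- and protein-binding domain that animals use in cell surface and secreted proteins. C. elegans has a very large family of such genes. Many encode secreted proteins of the intestine, and several are induced by bacterial infection or are needed for defence against a particular pathogen, in part downstream of the p38 MAP kinase PMK-1. Many members lie beside each other as products of local duplication.

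Library sizes were 56996610 to 66563408 reads at L4 and 45313448 to 76420128 reads at L2. The sftb-1 transcript itself was at 6152 and 7222 in wild type, 7333 and 6706 in cer39, then 3229 and 3580 in cer6 at L2 (log2 fold change of cer6 −0.97, adjusted p = 0.00592 by limma). At L4 it was at 14652 and 13787 in wild type and at 13710 and 15045 in K718E (0.02, adjusted p = 0.937), a level that does not check the labels, since both K718E and cer39 are missense alleles. The intestine marker list (8 of 8 tested) had no call in any comparison, and its summed level overlapped between all L2 groups: 156327 and 246560 in wild type, 216324 and 152847 in cer39, 180590 and 237532 in cer6. Molting and cuticle markers differed between the wild-type L2 libraries: their 6 tested genes summed to 55123 and 147115 in wild type, with 32820 and 56625 in cer39 and 72041 and 115328 in cer6. Of the 116 members, 28 (24.1%) differed more than 2-fold between the wild-type L2 libraries, against 10.4% of all genes. These members include clec-47, clec-180, clec-204, clec-218, clec-60, clec-61, clec-74, clec-125 and clec-15, which are described below. In whole-animal RNA, fewer cells of a type and less RNA per cell cannot be told apart.

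A few genes carried most of the family's RNA. In wild type at L4 the highest were clec-63 (77843 and 70889, in normalized values as throughout), clec-87 (31761 and 27872), clec-41 (20268 and 16379), clec-50 (18189 and 16449) and clec-88 (10058 and 9448). The 5 highest members held 59.4% and 61.4% of the summed value of the family in the wild-type L4 libraries, while the median member was at 129 and 132. In wild type at L2 the highest were clec-63 (31985 and 44154), clec-41 (14332 and 14243), clec-50 (9315 and 11874), clec-180 (3972 and 9312) and clec-1 (5075 and 6136), followed by clec-265 (4085 and 4072). The libraries of clec-180 spanned those of clec-1 and clec-265, so its place among these neighbours does not exceed their spread. Per kilobase of exon, wild-type levels at L2 ranged from 29352 for clec-63 and 10090 for clec-50 to 1.45 for clec-74. The family held 0.298% and 0.341% of all protein-coding signal in wild type at L2, 0.449% and 0.405% in cer39 and 0.662% and 0.773% in cer6, with no overlap between these groups. At L4 it held 0.415% and 0.401% in wild type and 0.383% and 0.402% in K718E, which overlap.

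The stages came from different library kits, one with poly-A capture and the other with rRNA removal, and were normalized separately, so levels between them were not tested. Side by side, clec-87 was the second member by level at L4 and stood at 333 and 281 in wild type at L2, where it ranked 44 of 116 by the wild-type mean, the basis of all ranks given here. Likewise clec-88 ranked 5 at L4 and 63 at L2, and clec-91 ranked 12 and 80. In the other direction, clec-17 ranked 97 at L4 (22.5 and 17.4 in wild type) and 34 at L2 (mean 563), and clec-42 ranked 109 (15.3 and 13.1) and 39 (386 and 416). The neighbours clec-13 and clec-15 together were at 0 and 2.18 in wild type at L4. The gene clec-73, a member at L4 at 1756 and 1809, was at 1.90 and 1.11 in wild type at L2 and so fell outside the rule there.

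More members were called in cer6 than in cer39 or K718E. In cer6 larvae 32 of 116 members (27.6%) were higher than in wild type, against 13.8% of all genes tested (percent called higher), and 11 (9.48%) were lower, against 13.8% of all genes. The largest increases were of clec-13 and clec-15, then clec-52, clec-12 and clec-125, leaving aside clec-74. Of the 116 members 5 reached a mean of 10 only through the cer6 libraries, and clec-74 was the 1 of them among the 32. The largest decrease was of clec-47. The median log2 fold change over members was 0.08, beside −0.01 over all genes. Calls are those of limma, fitted to log2(value + 1) and adjusted over all genes (Benjamini-Hochberg, 0.05), and they rest on 2 libraries a group. The number of increases fell without cer6 replicate 1. The number of decreases fell without either cer6 library, without wild-type replicate 2 and without either cer39 library, which enters the shared spread. The share of all genes called in those fits was not taken.

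**Figure D1:**
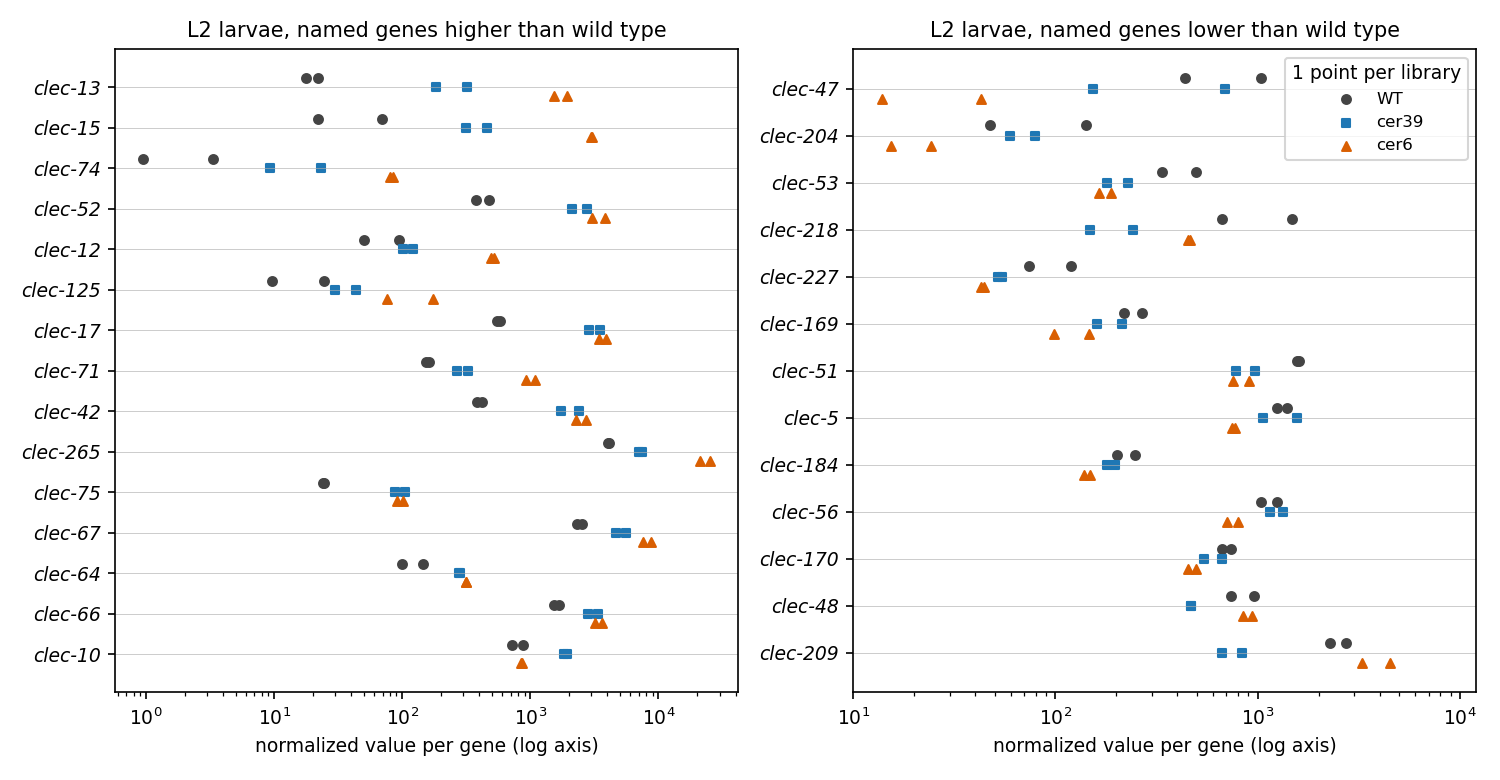
Normalized value of each named C-type lectin gene in each L2 library, on a log axis, with 1 point per library (wild type, cer39, cer6). Left, genes higher than wild type in cer39 or cer6, where clec-13 lies between 17.7 and 21.9 in wild type and at 1937 and 1540 in cer6. Right, genes lower than wild type in cer39 or cer6, where clec-47 is at 42.7 and 13.9 in cer6 and at 439 and 1038 in wild type.

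The genes with the largest response were clec-13 (I:12635172-12636542, plus strand, WBcel235) and clec-15 (I:12631185-12632555, minus strand), which lie side by side in opposite orientation and have exon lengths of 1242 bases each. clec-13 was at 21.9 and 17.7 in wild type, 322 and 184 in cer39, then 1937 and 1540 in cer6. clec-15 was at 21.9 and 69.7 in wild type, with 316 and 457 in cer39 and 3010 and 2989 in cer6. For both genes the 3 groups were ordered without overlap. The log2 fold changes in cer6 were 6.38 ± 0.31 (SE, n = 2 per group, limma adjusted p = 0.000984) for clec-13 and 6.22 ± 0.53 (adjusted p = 0.0023) for clec-15. In cer39 they were 3.56 ± 0.31 (adjusted p = 0.0156) and 3.24 ± 0.53 (adjusted p = 0.0297), and the difference between the mutants also passed the test (adjusted p = 0.00802 and 0.0193). The annotation now gives both genes the symbol clec-15, and at L4 their values were equal in every library, so the division of reads between them is uncertain. Their sum is not touched by that division: it was 43.8 and 87.4 in wild type, 638 and 641 in cer39, then 4947 and 4529 in cer6. The pseudogenes clec-14 and clec-16 were at 1.90 and 2.21 each in wild type. They were at 14.6 and 16.1 each in cer39, while in cer6 clec-14 was at 7.26 and 20.8 and clec-16 at 27.2 and 20.8. As their values were equal in wild type and cer39, the division of reads between these pseudogenes is uncertain too.

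Members linked to bacterial infection or defence moved in 1 direction where they were called. Of 19 listed genes 17 were tested at L2, and 13 of them (76.5%) rose in cer6 while none fell, against 13.8% of all genes in each direction. Their median log2 fold change was 1.35, beside −0.01 for all genes. In cer39 6 of the 17 (35.3%) rose, against 4.12% of all genes, and none fell, against 3.04% (median 0.82, beside 0.01 for all genes). The list was drawn up with earlier results of these data known. At L4 15 were tested and none was called in K718E (median −0.02).

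**Figure D2:**
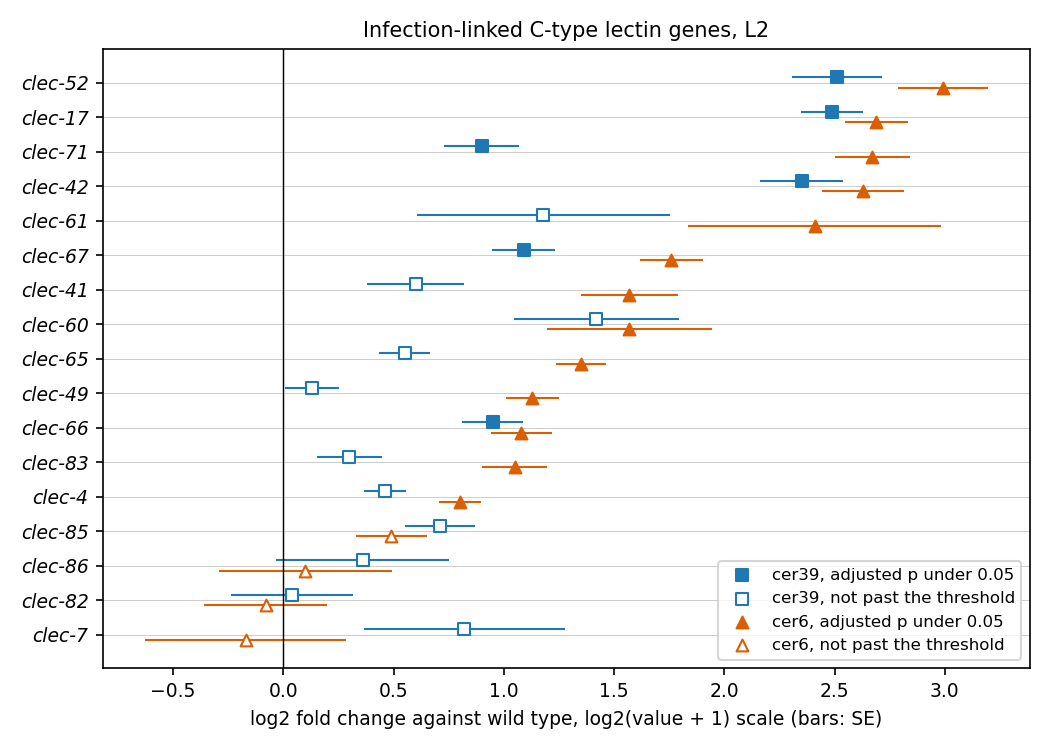
Log2 fold change against wild type with its SE for the 17 infection-linked C-type lectin genes tested at L2, in cer39 (squares) and cer6 (triangles), with filled symbols past the adjusted p of 0.05. The 13 filled triangles lie between 0.80 (clec-4) and 2.99 (clec-52), and both sets of values were taken against the same wild-type libraries.

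Of this list, clec-52, clec-60 and clec-71 are known to be induced by Staphylococcus aureus infection. clec-52 (IV:8167164-8168760) was at 478 and 378 in wild type, with 2126 and 2758 in cer39 and 3805 and 3025 in cer6. All mutant libraries stood above all wild-type libraries, with log2 fold changes of 2.51 ± 0.20 (limma adjusted p = 0.0136) in cer39 and 2.99 ± 0.20 (adjusted p = 0.00171) in cer6. clec-71 was at 161 and 153 in wild type, 327 and 265 in cer39, then 920 and 1087 in cer6. Its groups were ordered without overlap, and cer6 exceeded cer39 by 1.76 ± 0.17 on the log2 scale (adjusted p = 0.00714). clec-60 was far lower, at 21.9 and 45.4 in wild type, with 94.0 and 78.7 in cer39 and 88.9 and 103 in cer6. It rose in cer6 (1.57 ± 0.37, adjusted p = 0.0308) and did not pass the test in cer39 (adjusted p = 0.0796). Its neighbour clec-61 was at 32.4 and 8.85 in wild type, 39.3 and 41.1 in cer39, then 90.8 and 101 in cer6, and it rose in cer6 (adjusted p = 0.0306), while the test between the mutants did not pass (adjusted p = 0.188).

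The genes clec-41 and clec-42 act in defence against Bacillus thuringiensis. clec-42 (V:18191412-18194168) was at 386 and 416 in wild type, with 2414 and 1748 in cer39 and 2287 and 2694 in cer6. The mutants overlapped each other and stood clear of wild type, with log2 fold changes of 2.35 ± 0.19 (limma adjusted p = 0.0128) and 2.63 ± 0.19 (adjusted p = 0.00182). clec-41 (V:13134903-13138101), the second most abundant member, was at 14332 and 14243 in wild type, 25860 and 18097 in cer39, then 37289 and 48346 in cer6. It rose in cer6 by 1.57 ± 0.22 (adjusted p = 0.00675), and the value in cer39 was 0.60 ± 0.22 (adjusted p = 0.146). clec-17 (I:12430028-12431500) was at a mean of 563 ± 15.7 (SD, n = 2) in wild type, with 3514 and 2865 in cer39 and 3403 and 3877 in cer6. Like clec-42 it rose to overlapping levels in cer39 (2.49 ± 0.14, adjusted p = 0.0101) and cer6 (2.69 ± 0.14, adjusted p = 0.00125).

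Other members of the list have known places in defence. clec-67 and clec-85 are expressed under PMK-1, and clec-49 takes part in the defence against Serratia marcescens. clec-67 was at 2299 and 2509 in wild type, 5597 and 4655 in cer39, then 7550 and 8781 in cer6. It rose in cer39 (1.09 ± 0.14, limma adjusted p = 0.0218) and further in cer6 (1.76 ± 0.14, adjusted p = 0.00216). clec-85 was at 1635 and 1477 in wild type, with 2907 and 2240 in cer39 and 2062 and 2307 in cer6, with no call in either (adjusted p = 0.0572 and 0.0742). clec-49 was at 312 and 329 in wild type, 354 and 348 in cer39, then 725 and 683 in cer6. It rose in cer6 (1.13 ± 0.12, adjusted p = 0.00345) and differed between the mutants (adjusted p = 0.00864), whereas in cer39 it was 0.13 ± 0.12 (adjusted p = 0.508). The remaining members called in cer6 were clec-4, clec-65, clec-66 and clec-83, with log2 fold changes of 0.80 to 1.35. The values of clec-7, clec-82 and clec-86, between −0.17 and 0.10 in cer6, did not pass the test, and the libraries of each overlapped between wild type and cer6.

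Of the 5 members with the highest mean over all L2 libraries, clec-265 (X:3031783-3033117) had the largest increase in cer6. It was at 4085 and 4072 in wild type, with 7421 and 7107 in cer39 and 21223 and 25142 in cer6. The groups were ordered without overlap, with log2 fold changes of 0.83 ± 0.12 (limma adjusted p = 0.0253) in cer39 and 2.50 ± 0.12 (adjusted p = 0.000984) in cer6. In cer6 it thereby passed clec-50 (19253 and 20540), which rose by 0.92 ± 0.16 (adjusted p = 0.0125). clec-63, the most abundant member in every L2 library, was at 31985 and 44154 in wild type, 49974 and 39123 in cer39, then 63288 and 92003 in cer6, and rose in cer6 by 1.02 ± 0.27 (adjusted p = 0.0409). clec-12 was at 94.2 and 49.8 in wild type, with 102 and 122 in cer39 and 496 and 516 in cer6, an increase of 2.87 ± 0.32 in cer6 (adjusted p = 0.00381). clec-125 was at 9.52 and 24.4 in wild type, at a mean of 36.9 ± 9.73 (SD, n = 2) in cer39, and 76.2 and 175 in cer6 (limma adjusted p = 0.0208). Its libraries differed more than 2-fold in wild type and in cer6. clec-74 rested on almost no wild-type signal, at 0.95 and 3.32 in wild type, 9.24 and 23.2 in cer39, then 79.9 and 84.5 in cer6. Without cer6 its mean was 9.19, below the limit of 10, so its cer6 values brought it into the test and are given with no test.

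Fewer members were lower in cer6. clec-47 (V:15175759-15176324) was at 1038 and 439 in wild type, with 154 and 686 in cer39 and 42.7 and 13.9 in cer6. Both cer6 libraries were far below all others, with a log2 fold change of −4.73 ± 0.89 against wild type (limma adjusted p = 0.0158). In each of the 3 groups its libraries differed more than 2-fold. clec-51 (IV:8161953-8163800) was at 1563 and 1605 in wild type, 966 and 779 in cer39, then 904 and 752 in cer6. The mutants overlapped below wild type, at −0.87 ± 0.16 (adjusted p = 0.0374) in cer39 and −0.94 ± 0.16 (adjusted p = 0.0113) in cer6. It lies near clec-52, which moved the opposite way in both mutants. clec-53 was at 337 and 494 in wild type, with 229 and 180 in cer39 and 165 and 189 in cer6, and was called in cer6 (adjusted p = 0.0193) but not in cer39 (adjusted p = 0.0667). clec-204 was at 47.6 and 141 in wild type, 79.3 and 59.9 in cer39, then 15.4 and 24.3 in cer6 (−2.02 ± 0.55, adjusted p = 0.0456). clec-5, clec-56, clec-57, clec-169, clec-170, clec-184 and clec-227 were the other members lower in cer6, with log2 fold changes of −0.47 to −1.09 and adjusted p of 0.0257 to 0.0470.

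In cer39 larvae 14 of 116 members (12.1%) were higher than in wild type, against 4.12% of all genes tested, and 5 (4.31%) were lower, against 3.04%. The median over members was 0.18, beside 0.01 over all genes. The named increases were clec-13, clec-15, clec-52, clec-17, clec-42, clec-75, clec-10, clec-64, clec-67 and clec-66, and the decreases clec-218, clec-209, clec-51 and clec-48, with clec-247 lower in addition at a mean below 50 in the higher group. These counts depended on single libraries, as calls were lost without either cer39 library and were fewer without either cer6 library. In a fit of the 4 libraries compared, 8 were higher and 2 lower. The share of all genes called in these fits was not taken. DESeq2 called 22 higher and 8 lower, against 8.69% and 8.45% of all genes. As cer39 was not sorted, the part of handling in these values was not tested.

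Several members called in cer39 had other values in cer6, which was sorted like wild type whereas cer39 was not. clec-10 (II:402678-404180) was at 717 and 882 in wild type, with 1945 and 1846 in cer39 and 866 and 848 in cer6. It rose in cer39 (1.25 ± 0.14, limma adjusted p = 0.0176), lay within the wild-type range in cer6, and differed between the mutants (−1.14 ± 0.14 for cer6 minus cer39, adjusted p = 0.00845). clec-80 was at 363 and 403 in wild type, 755 and 691 in cer39, then 417 and 394 in cer6, and differed between the mutants in the same way (adjusted p = 0.0147). clec-48 was at 961 and 738 in wild type, with 470 and 467 in cer39 and 939 and 845 in cer6, lower in cer39 (adjusted p = 0.0424) and different between the mutants (adjusted p = 0.0188). clec-247 was at 44.7 and 48.7 in wild type, 4.62 and 6.26 in cer39, then 19.1 and 51.0 in cer6, lower in cer39 by 2.90 on the log2 scale at low values (adjusted p = 0.0349). clec-218 was at 662 and 1481 in wild type, with 243 and 148 in cer39 and 453 and 464 in cer6. It was lower in cer39 (−2.37 ± 0.42, adjusted p = 0.0361), and the test between the mutants did not pass (adjusted p = 0.0919). In contrast, clec-75 was at 23.8 and 24.4 in wild type, 105 and 87.6 in cer39, then 101 and 90.3 in cer6, and rose in cer39 (1.95 ± 0.21, adjusted p = 0.0178) and cer6 (1.94 ± 0.21, adjusted p = 0.00374), with a difference of −0.01 ± 0.21.

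clec-209 (V:2351676-2352932) was at 2271 and 2717 in wild type, with 666 and 835 in cer39 and 3259 and 4512 in cer6. The cer39 libraries lay below wild type (−1.73 ± 0.21, limma adjusted p = 0.0195) and the cer6 libraries above it without a call (0.63 ± 0.21, adjusted p = 0.0786), and the mutants differed by 2.36 ± 0.21 (adjusted p = 0.00614). A second gene, F56A4.2 (V:2459637-2460893), has the same exon length of 891 bases and held exactly the same value in every one of the 10 libraries, and the current annotation gives it the symbol clec-209 as well. The 2 genes cannot be told apart in these data. Their sum was 4542 and 5433 in wild type, 1332 and 1669 in cer39, then 6518 and 9023 in cer6.

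Between the mutants, 19 members (16.4%) were higher in cer6 than in cer39, against 9.11% of all genes, and 6 (5.17%) were lower, against 10.5%. The 19 include clec-74, which entered the test only through its cer6 values. As cer6 larvae were sorted and cer39 larvae were not, allele and sorting cannot be told apart in this comparison. Without one of the cer39 or cer6 libraries the counts dropped to between 0 and 5 higher and to 0 lower. Besides those above, clec-198 was at 152 and 221 in wild type, with 150 and 126 in cer39 and 279 and 373 in cer6 (adjusted p = 0.0297 between the mutants by limma), and clec-264 at 209 and 287, 329 and 316, and 686 and 677 (adjusted p = 0.0173). clec-167 was at 20.0 and 32.1 in wild type, 70.8 and 50.9 in cer39, then 4.54 and 18.5 in cer6, lower in cer6 than in cer39 (adjusted p = 0.0467).

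Some neighbouring members moved the same way in cer6. Runs of at least 3 members with gaps of at most 20 kb were laid out after the values had been seen, so they are a description with no test of their own. Of 8 such runs, most members rose in 3, most fell in 1, and neither held in the other 4. In cer6 13.8% of all genes were called higher and 13.8% lower, beside 27.6% and 9.48% of all members. In cer39 these shares were 4.12% and 3.04% of all genes, and 12.1% and 4.31% of all members. In the run clec-62 to clec-66 (II:12893062-12906644) all 5 members rose in cer6, by 1.02 to 1.39 on the log2 scale, and 2 of them, clec-64 and clec-66, rose in cer39. clec-64 was the lowest of the 5, at 100 and 144 in wild type, with 282 and 278 in cer39 and 316 and 316 in cer6. In the run from clec-67 to clec-78 (IV:3922165-4014235) 7 of 9 members rose in cer6, clec-74 included, and 3 in cer39. Here clec-72 was at 1685 and 1930 in wild type, 3165 and 2424 in cer39, then 3911 and 3696 in cer6 (1.08 ± 0.16 in cer6, limma adjusted p = 0.00804). clec-174 was at 40.9 and 25.4 in wild type, with 52.4 and 46.5 in cer39 and 82.6 and 140 in cer6 (adjusted p = 0.0229). In the run clec-57, clec-227, clec-56 and clec-54 (V:14469231-14479003) 3 of 4 members fell in cer6. clec-56 was at 1032 and 1242 in wild type, 1339 and 1155 in cer39, then 704 and 796 in cer6, where it was lower than in both other groups. The longest run, 11 members from clec-25 to clec-33 (V:16843241-16869840), held 1 call, clec-37, which rose in both mutants. In the run clec-245, clec-246 and clec-42 the first pair had log2 fold changes of −0.97 and −1.28 in cer6 without a call, beside the increase of clec-42. Of the run clec-80 to clec-85 1 of 5 members rose in cer6, of clec-165 to clec-170 2 of 5 fell, and of clec-143, clec-60 and clec-61 2 of 3 rose.

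**Figure D3:**
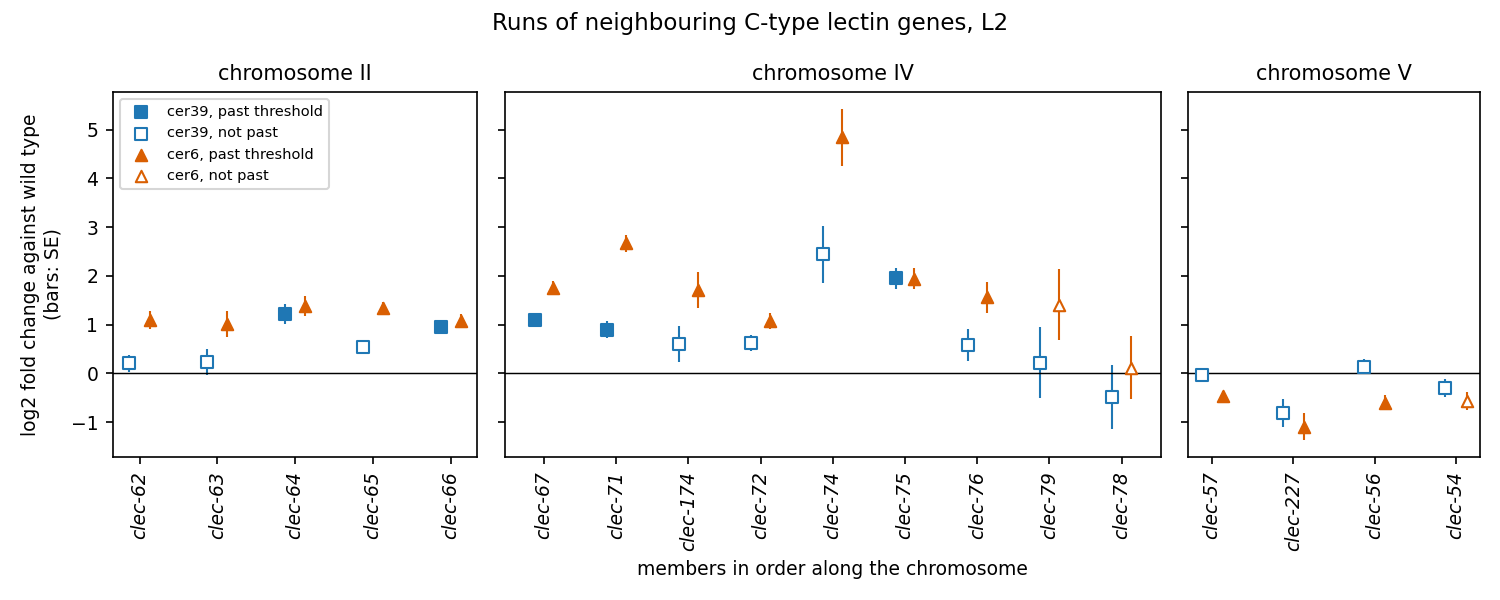
Log2 fold change against wild type with its SE for members of 3 runs of neighbouring genes, in their order along chromosomes II, IV and V, in cer39 (squares) and cer6 (triangles). Filled symbols passed the adjusted p of 0.05, which holds for 5 of 5, 7 of 9 and 3 of 4 members in cer6. Over all genes 13.8% were called higher and 13.8% lower in cer6. The 7 include clec-74, which entered the test only through cer6.

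By chromosome, calls in cer6 were spread over all 6, beside 13.8% of all genes called higher and 13.8% lower. On chromosome IV 11 of 33 members were higher, clec-74 included, and 4 lower. On chromosome II 9 of 22 were higher and none lower, and on chromosome V 6 of 45 were higher and 5 lower. The share of all genes by chromosome was not taken, so these counts are a description.

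Other gene groups were read for comparison, from lists taken by symbol and written with earlier results of these data known. Of 12 galectins, lectins of a different fold that bind beta-galactosides, 4 (33.3%) rose and 3 (25%) fell in cer6, against 13.8% of all genes each way, and 1 (8.33%), lec-9, rose in cer39, against 4.12%. lec-9 was at 6021 and 6386 in wild type, with 11680 and 10278 in cer39 and 12801 and 11520 in cer6, and lec-2, which fell in cer6, was at 14953 and 15661, 21125 and 16701, and 7391 and 6800. Of 57 other defence effectors tested (lysozymes, saposin-like proteins, antimicrobial peptides and infection-response genes), 15 (26.3%) rose and 5 (8.77%) fell in cer6, against 13.8% of all genes each way. In cer39 8 (14%) rose, against 4.12%, and 1 (1.75%) fell, against 3.04%. The lysozyme gene lys-1 was at 24302 and 24777 in wild type, 53665 and 44522 in cer39, then 114004 and 108999 in cer6, with the groups ordered without overlap. Of 16 regulators of intestinal defence 1 (6.25%) was higher in cer6, against 13.8% of all genes. It was skn-1, a stress-response transcription factor (0.60 ± 0.14, limma adjusted p = 0.0283). In cer39, 2 of the 16 (12.5%) were lower, against 3.04% of all genes. They were zip-2, a pathogen-response transcription factor (−0.74 ± 0.11, limma adjusted p = 0.0275), and nsy-1, a kinase upstream of PMK-1 (−0.65 ± 0.13, adjusted p = 0.0437). In cer6, 3 of 6 germ line markers were lower and 3 of 7 neuron markers were higher than in wild type, against 13.8% of all genes each way. No hypodermis, body wall muscle or molting marker was called in cer6 or cer39. The summed germ line level was 12149 and 18596 in wild type, with 7845 and 6282 in cer39 and 9504 and 11617 in cer6, and that of neurons 32994 and 32041, 37520 and 35456, and 47643 and 46712. Of 4 pharynx markers 1 was lower in cer6, against 13.8% of all genes. The pharynx sums were 23317 and 57158 in wild type, 34466 and 24008 in cer39, then 15161 and 20126 in cer6. The 1 sperm marker above the limit, spe-11, reached it only through the cer6 libraries and is given with no test (12.4 and 5.53 in wild type, 1.54 and 0.89 in cer39, then 193 and 55.6 in cer6). The part of these tissues in the values of the family was not tested.

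In K718E larvae at L4 no member was called in either direction by limma (0 of 128), against 0.391% of all genes called higher and 0.00631% lower. An unadjusted p under 0.05 was reached by 25 members and by 3221 of all 15840 genes. edgeR called none of the members, against 0.354% of all genes called higher and 0.00631% lower, and DESeq2 called 3 higher and 7 lower, against 2.95% and 2.61%. Each K718E library shares an outcross with 1 wild-type library, and with that pair as a block limma called 4 higher (3.12%, against 2.92% of all genes) and 6 lower (4.69%, against 1.02%). Fewer members were called under settings chosen after seeing the data: the pairs exchanged gave 0 higher and 3 lower, and edgeR with the block gave 2 lower. The fold changes ranged from −0.88 to 1.05 over the members, with a median of 0.05, beside −0.01 over all genes. Leaving out either K718E library or wild-type replicate 2 gave calls among the members. The share of all genes called in those fits was not taken. In these libraries all 4 body wall muscle markers and 3 of 4 pharynx markers were called higher in K718E, against 0.391% of all genes. The summed muscle level was 212716 and 200221 in wild type against 528198 and 475543 in K718E. That of pharynx was 19577 and 18614 against 43874 and 40863. Of 7 neuron markers 1 was higher, and no intestine, hypodermis, germ line, sperm or molting marker was called. The part of these tissues in the values of the family at L4 was not tested.

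**Figure D4:**
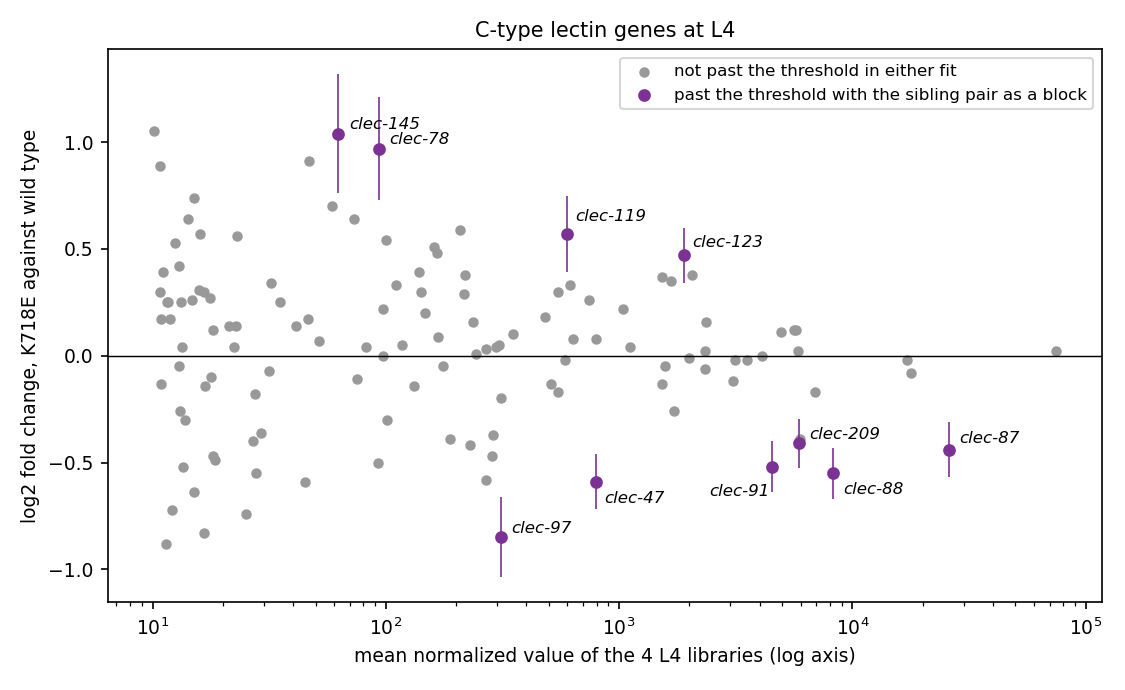
Log2 fold change of K718E against wild-type siblings for the 128 C-type lectin genes at L4 against their mean normalized value (log axis), with SE bars from the fit without a block for the 10 genes past an adjusted p of 0.05 once the sibling pair was a block. The 6 genes below 0 include clec-87 and clec-88, and the 4 above 0 are clec-119, clec-123, clec-145 and clec-78.

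Of the genes lower with the block, clec-87, clec-88 and clec-91 ranked far higher at L4 than at L2, as given above. clec-209 ranked 8 at L4 and 9 at L2, and clec-47 ranked 31 and 30. clec-97 ranked 42 at L4 and was not a member at L2. clec-87 (I:10184462-10185520) was at 31761 and 27872 in wild type and 19354 and 24838 in K718E. clec-88 (II:6365722-6367002) was at 10058 and 9448 against 5897 and 7483, and clec-91 (I:9126140-9127101) at 5690 and 4928 against 3359 and 4068. For each, both K718E libraries lay below both wild-type libraries, as for 28.9% of all genes at L4, with log2 fold changes of −0.44 ± 0.13, −0.55 ± 0.12 and −0.52 ± 0.12. Their limma adjusted p were 0.143, 0.112 and 0.121 without the block and 0.00985, 0.00106 and 0.00618 with it. clec-97 was at 443 and 358 against 194 and 250 (adjusted p = 0.114 by limma, 0.00487 with the block). clec-47 was at 899 and 1016 against 599 and 672, and clec-209 at 6939 and 6456 against 4526 and 5613, again with values equal to those of F56A4.2.

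Of the members higher with the block, clec-123 ranked 26 of 128 at L4, clec-119 ranked 40, clec-78 ranked 75 and clec-145 ranked 81. clec-123 was at 1513 and 1648 in wild type and 2464 and 1955 in K718E (0.47 ± 0.13, limma adjusted p = 0.135, 0.0400 with the block), and clec-119 at 425 and 535 against 817 and 617. clec-78 was at 52.2 and 74.1 against 125 and 121, and clec-145 at 48.1 and 33.8 against 94.8 and 74.1. For all 4 the libraries did not overlap between the groups, as for 25.4% of all genes at L4 in this direction. The infection-linked members that rose at L2 were not called here. clec-52 was at 162 and 195 against 157 and 187 (−0.05 ± 0.19, adjusted p = 0.902) and clec-67 at 3807 and 3313 against 3214 and 3828 (−0.02 ± 0.12, adjusted p = 0.946).

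Transcripts of 1 gene did not always follow their sum. At L2 19 members had more than 1 listed transcript, and each was fitted among all transcripts of the table. For clec-146 the transcript Y48E1B.9b.1 was listed at 0 and 0 in wild type, 37 and 21.4 in cer39, then 64.4 and 130 in cer6, while Y48E1B.9a, the main transcript, was at 319 and 779, 652 and 622, and 684 and 397. For clec-84 the transcript Y54G2A.33.1 was listed at 0 and 0 in wild type, with 21.6 and 28.6 in cer39 and 98.0 and 34.7 in cer6. Both entered the table's test through the mutant libraries alone and are given with no test. The other clec-84 transcript, Y54G2A.33.2, was at 772 and 1051, 1090 and 885, and 1099 and 1295, without a call. For clec-76 the increase lay in Y46C8AR.1.1, at 84.7 and 157 in wild type and 807 and 428 in cer6 (limma adjusted p = 0.0339), while Y46C8AR.1.2 was at 101 and 99.6 against 69.0 and 45.2 (adjusted p = 0.134). For clec-83 all 3 transcripts rose in cer6. At L4 22 members had more than 1 transcript, and none of these transcripts was called. Isoform values are estimates that divide shared reads, so a transcript at 0 may be a failed estimate.

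The splicing tables listed 4 members. They hold only events that passed the authors' false discovery rate, so every event was chosen by its difference and is given here as a description. At L4 an intron of clec-180 (retained-intron event at IV:7572598-7573778) had inclusion levels of 0.859 and 0.854 in wild type and 0.506 and 0.468 in K718E. They came from 22 inclusion and 2 skipping reads and 42 and 4 in wild type, and from 35 and 19 and 19 and 12 in K718E. The 95% Wilson intervals of the share of inclusion reads were 74.2 to 97.7% and 79.7 to 96.6% in wild type, and 51.5 to 76.2% and 43.8 to 76.3% in K718E, where the first wild-type interval overlaps both K718E intervals and the second overlaps neither. They cover counting error only. The gene's level did not separate the groups, at 384 and 608 against 610 and 577.

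A cassette exon of 42 bases in clec-199 (IV:17356906-17356947) was included at 0.468 and 0.670 in wild type and at 0.146 and 0.176 in K718E at L4, on 19 to 38 reads a library. At L2 another exon of the same gene, of 36 bases (IV:17355280-17355315), was at 1.00 and 1.00 in wild type and at 0.764 and 0.876 in cer6, on 23 to 29 reads. In both events the mutant libraries skipped the exon more. In clec-166 an exon of 148 bases (IV:1249907-1250054, minus strand) was never skipped in 93 and 94 wild-type reads and was at 0.913 and 0.855 in cer39 and 0.852 and 0.963 in cer6. The latter rested on 6 skipping reads in 109 and 1 in 78. In clec-65 an exon of 198 bases (II:12902338-12902535) was at 1.00 and 0.993 in wild type and 0.977 and 0.980 in cer6. This is the event with the most reads, 1539 to 4429 a library, and the smallest difference. Apart from clec-65, which rose in cer6, none of these genes was called at the gene level in the same comparison.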

How the data were processed

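RNA-seq was deposited as normalized transcript values. Per the paper's methods and the labels, the authors mapped reads to WBcel235 with STAR, quantified transcripts with RSEM and normalized them with DESeq2 (versions not given in the sources used here); whether the molecular identifiers of the L2 adapters were used is likewise not given. The deposited values are signal (counts divided by a size factor). Whole reads were recovered from 99.996 to 100% of them, within 0.1 of a read. The L2 table lists few transcripts at 0 (0.0811%, against 50.2% at L4); transcripts outside it were not analysed here, and 1 row with shifted cells was left out. Inclusion levels and read numbers of splicing events are the authors' deposited values from rMATS, listed for events past a false discovery rate of 0.05; sample 1 was read as wild type. Tables of the authors' own fold changes and p-values were not used.

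Transcripts were summed per gene, and genes of every biotype with a mean of at least 10 were fitted on log2(value + 1) with limma 3.58.1 (trend, two-sided, R 4.3.3), separately for the 4 L4 and the 6 L2 libraries, with Benjamini-Hochberg adjustment over all genes and a threshold of 0.05. edgeR 4.0.16 and DESeq2 1.42.0 on recovered reads were alternatives. The gene fits of limma, edgeR and DESeq2 with all libraries and no block were checked on simulated data. The other settings and the transcript fits were not. Named genes were, per comparison, the 10 members with the largest change in each direction among those called, whose groups do not overlap and average 50 or more on the higher side, besides the 5 highest members of each table, members with a listed splicing event and up to 4 members of each list. Genes outside this rule (such as clec-1, clec-245, clec-246, clec-247, clec-61, clec-72, clec-174, clec-85, clec-14, clec-16 and the genes called at L4 with the block) were named after their values were seen. Lists were taken by symbol, and positions from Ensembl release 115 on WBcel235, the build of the files. The members and lists were chosen with earlier results of these data known.

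Samples of a group are labelled as replicates. At L4 they are 2 independent lines, each with wild-type siblings of its own outcross, which pairs them (correlation of replicate differences −0.104). At L2 the numbers only name samples, and p-values measure the spread between 2 samples. Intervals cover counting error only.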

Additional observations from a re-analysis of the deposited data

Results flagged for a closer look

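The effect of cer6 and that of cer39 at L2 differed for 25 members by the test of the difference itself (limma, adjusted p under 0.05). This count includes clec-74, which its cer6 values brought into the test. Both effects use the same wild-type libraries, so the values are log2 differences of cer6 minus cer39 taken directly. As cer6 larvae were sorted and cer39 larvae were not, these differences cannot be told apart from an effect of sorting. Of the 19 that were higher in cer6, clec-15 (2.98), clec-13 (2.82), clec-74 (2.40), clec-209 (2.36), clec-247 (2.34), clec-12 (2.17), clec-71 (1.76), clec-265 (1.67), clec-198 (1.22), clec-264 (1.08) and clec-49 (1.00) differed by 1 or more, where clec-74 passed the limit on low values only through cer6. Smaller differences were those of clec-41 (0.97), clec-186 (0.94), clec-48 (0.93), clec-62 (0.89), clec-65 (0.80), clec-83 (0.74), clec-67 (0.67) and clec-50 (0.65). The 6 that were lower in cer6 were clec-47 (−3.68), clec-167 (−2.55), clec-10 (−1.14), clec-80 (−0.83), clec-56 (−0.73) and clec-57 (−0.44). Of these, clec-209 was below wild type in both cer39 libraries and above it in both cer6 libraries.

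Signal above wild type also appeared at L2 in clec- genes that were not members, either pseudogenes or genes with a mean below 10. The lower library of a mutant exceeded both wild-type libraries by more than 3 for the pseudogenes clec-14 (14.6 in cer39, 7.26 in cer6), clec-16 (14.6 and 20.8) and clec-77 (19.1 in cer6), and for the genes clec-68 (10.0 in cer39, 10.9 in cer6), clec-73 (12.7 in cer6), clec-114 (9.08 in cer6) and clec-266 (14.3 in cer39). The values of clec-14 and clec-16 were equal in wild type and cer39, so these pseudogenes may share reads and not be separate signals. Both wild-type libraries listed clec-266 at 0, while it was at 20.0 and 14.3 in cer39 and at 0 and 3.47 in cer6.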

How the results depend on the processing

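No fold change of a called member turned direction under any alternative that was run, for the 10 members called with the block in K718E, 19 in cer39, 43 in cer6 and 25 between the mutants. With 2 libraries a group, calls depended on single libraries. Over the settings that leave out 1 library, members higher and lower ranged from 0 to 14 and from 0 to 15 in K718E, from 0 to 16 and from 0 to 4 in cer39, from 21 to 33 and from 0 to 11 in cer6, and from 0 to 25 and from 0 to 10 between the mutants, where a lone library was assumed to vary like the other groups. DESeq2 gave 3 higher and 7 lower in K718E, 22 and 8 in cer39, 35 and 15 in cer6, and 29 and 10 between the mutants. With only the 4 libraries compared, 8 were higher and 2 lower in cer39, 4 were lower in cer6, and 10 were lower between the mutants. The replicate block gave 4 higher and 6 lower in K718E. At L2 the numbers do not pair samples (correlations of −0.175 to 0.120). There the block gave 9 and 2 in cer39, 31 and 7 in cer6, and 18 and 4 between the mutants. Chosen after seeing the data, edgeR with the replicate block gave 2 lower in K718E, 9 and 1 in cer39, 5 lower in cer6 and 2 lower between the mutants. The crossed pairing of the L4 replicates, also chosen after seeing the data, gave 0 higher and 3 lower. The cause of these changes was not tested. A direction left out of these counts is not given here and does not stand for 0. Where no share of all genes is given above for a fit, it was not taken. Depth limits the size of changes that start from few reads, as for clec-74 (0.95 and 3.32 in wild type).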
